A study of Mus musculus with 40 samples.

Results

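The mouse Cyp3a genes encode cytochromes P450 of the endoplasmic reticulum that oxidize steroids, bile acids and a large share of drugs in the liver. They are classical targets of the pregnane X receptor (PXR, Nr1i2) and, with it, of the constitutive androstane receptor (CAR, Nr1i3), nuclear receptors that heterodimerize with the retinoid X receptor. Cyp3a11 is the main adult hepatic form, Cyp3a41a and Cyp3a44 are known as forms of female liver, and Cyp3a16 as a form of fetal and young liver. The 6 members were taken by symbol: Cyp3a11, Cyp3a13, Cyp3a16, Cyp3a25, Cyp3a41a and Cyp3a44, 6 of 55359 genes in the count tables.

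Liver RNA was sequenced from 40 male C57BL/6 mice, 1 library each, in 8 groups of 5. The control mice received sesame oil, and the others received the dioxin TCDD, which binds and activates the aryl hydrocarbon receptor (AhR), at 30, 10, 3, 1, 0.3, 0.1 or 0.03 μg/kg. Each mouse was gavaged 7 times, at intervals of 4 days, from 30 days of age and was killed at 58 days of age, as the labels give it. The study's methods place the first gavage at a slightly earlier age. All mice were males of 1 strain on the same diet, so the female forms of the family were examined only in male liver.

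Libraries held 15.5 to 21.0 M (mega) gene counts, with a median of 17.5 M. The 6 AhR target genes used to check the dose labels, Cyp1a1 among them, were all called higher at 3, 10 and 30 μg/kg. All 6 hepatocyte marker genes were tested and abundant in vehicle liver, where they summed to between 98520 and 120095 CPM (a gene's counts per M counts of its library, with the library size scaled by edgeR's TMM). A single library of the highest dose stood apart: on the first principal component, which held 47.6% of the variance, replicate 1 at 30 μg/kg lay at 81.7, between the 10 μg/kg mice (39.1 to 67.8) and the other 30 μg/kg mice (129 to 147). Where leaving this mouse out moved a call or a value of a member appreciably, the value without it is given.

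All 6 members lie on chromosome 5. Coding sequences of the family fall into close groups. Cyp3a11 and Cyp3a44 were 94.9% identical over their coding bases, Cyp3a41a and its neighbor Cyp3a41b 99.9%, and Cyp3a25 and the neighboring Cyp3a59, a further gene of the family, 97.5%. Cyp3a13 had no near copy, at 75.4% to 77.1% identity to the other 8 family genes compared. Because the genes of a pair had unlike dose patterns below, the 250 bases before the start site of 2 pairs are shown (RefSeq, GRCm38.p6), 5′ to 3′ on each gene's own strand. Capitals mark bases that differ from, or have no partner in, the other promoter of the pair. The Cyp3a11 window is chr5:145879855-145880104 (minus strand) and the Cyp3a44 window is chr5:145805875-145806124 (minus strand), and the aligned bases were 81.3% identical.
Cyp3a11: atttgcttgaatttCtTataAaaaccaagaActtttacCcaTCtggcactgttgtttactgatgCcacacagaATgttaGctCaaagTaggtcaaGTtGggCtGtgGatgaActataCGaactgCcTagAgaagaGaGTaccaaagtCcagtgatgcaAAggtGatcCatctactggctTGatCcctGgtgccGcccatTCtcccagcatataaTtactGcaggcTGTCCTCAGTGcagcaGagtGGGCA
Cyp3a44: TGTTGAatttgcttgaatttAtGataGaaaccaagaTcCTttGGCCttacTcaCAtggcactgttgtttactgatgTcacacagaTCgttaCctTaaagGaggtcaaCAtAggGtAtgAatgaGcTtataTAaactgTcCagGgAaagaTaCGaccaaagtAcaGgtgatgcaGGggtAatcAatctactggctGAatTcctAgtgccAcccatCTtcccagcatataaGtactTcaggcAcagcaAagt

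The Cyp3a25 window is chr5:146009619-146009868 (minus strand) and the Cyp3a59 window is chr5:146079008-146079257 (plus strand). The aligned bases of this pair were 95.6% identical, and each holds 12 capitals.
Cyp3a25: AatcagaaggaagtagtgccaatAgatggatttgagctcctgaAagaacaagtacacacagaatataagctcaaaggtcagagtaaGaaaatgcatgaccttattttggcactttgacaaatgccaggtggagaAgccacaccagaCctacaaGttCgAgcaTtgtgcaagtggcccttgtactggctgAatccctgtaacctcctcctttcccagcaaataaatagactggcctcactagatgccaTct
Cyp3a59: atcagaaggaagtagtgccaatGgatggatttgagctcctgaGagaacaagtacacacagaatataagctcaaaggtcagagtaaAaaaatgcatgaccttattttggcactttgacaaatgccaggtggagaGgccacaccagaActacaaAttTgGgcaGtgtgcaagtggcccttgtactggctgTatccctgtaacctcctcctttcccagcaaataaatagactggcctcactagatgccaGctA

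Promoter windows of 300 bases, from 250 before to 50 after the start site, were available for all 6 members and for Cyp3a41b, Cyp3a57 and Cyp3a59. On both strands, none of these 9 windows held the AhR core GCGTG, the STAT5 motif TTCNNNGAA, or either PXR arrangement. The PXR arrangements were AGNTCA repeated directly 3 bases apart, and the everted repeat of TGANCT, 6 bases and AGNTCA. Over 32544 distinct mouse promoter windows the AhR core was found in 32.6% and the STAT5 motif in 8.33%. The direct repeat was found in 0.0707% and the everted repeat in 0.0307%. A window without a motif says only that these letters are absent from it.

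Of the 6 members, 4 passed the filter on low counts and were tested. Cyp3a16 had 5 counts in all 40 libraries together, at most 2 in 1 library. Cyp3a41a had 2 counts in all, both in 1 vehicle library. The counts leave out reads that map to several places, and 82.9% of the 150-base windows (the read length) of the Cyp3a41a transcript occur letter for letter in Cyp3a41b, so its level could not be read from these counts. No window of Cyp3a16, Cyp3a11, Cyp3a13 or Cyp3a44 was shared with a transcript of another gene at that length, and 0.702% of those of Cyp3a25 were, all with Cyp3a59. Cyp3a44 passed the filter on low counts only through libraries of the 10 and 30 μg/kg groups, where it was highest. Neither the count of tested members nor a test of Cyp3a44 in that set is therefore independent of its rise at these 2 doses. For this gene p-values are therefore given from the fit with no filter, in which every gene was tested.

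In vehicle liver the order of levels per transcript length (RPKM, the CPM divided by the length of the principal transcript in kilobases) was Cyp3a11, Cyp3a25, Cyp3a13 and Cyp3a44. Cyp3a11 stood at 2404 ± 402 RPKM (SD, n = 5), Cyp3a25 at 416 ± 62.1 and Cyp3a13 at 53.7 ± 4.28. Cyp3a44 was at 0.0152 ± 0.0340 RPKM, with 3 counts in 1 mouse and 0 in the other 4. The ranges of neighbors in this order did not overlap. Cyp3a11 made up 83.0 ± 0.642% of the summed Cyp3a RPKM. Its share was 69.9% when the length of every gene was the union of its annotated exons, which for Cyp3a11 is longer than its principal transcript.

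**Figure D1:**
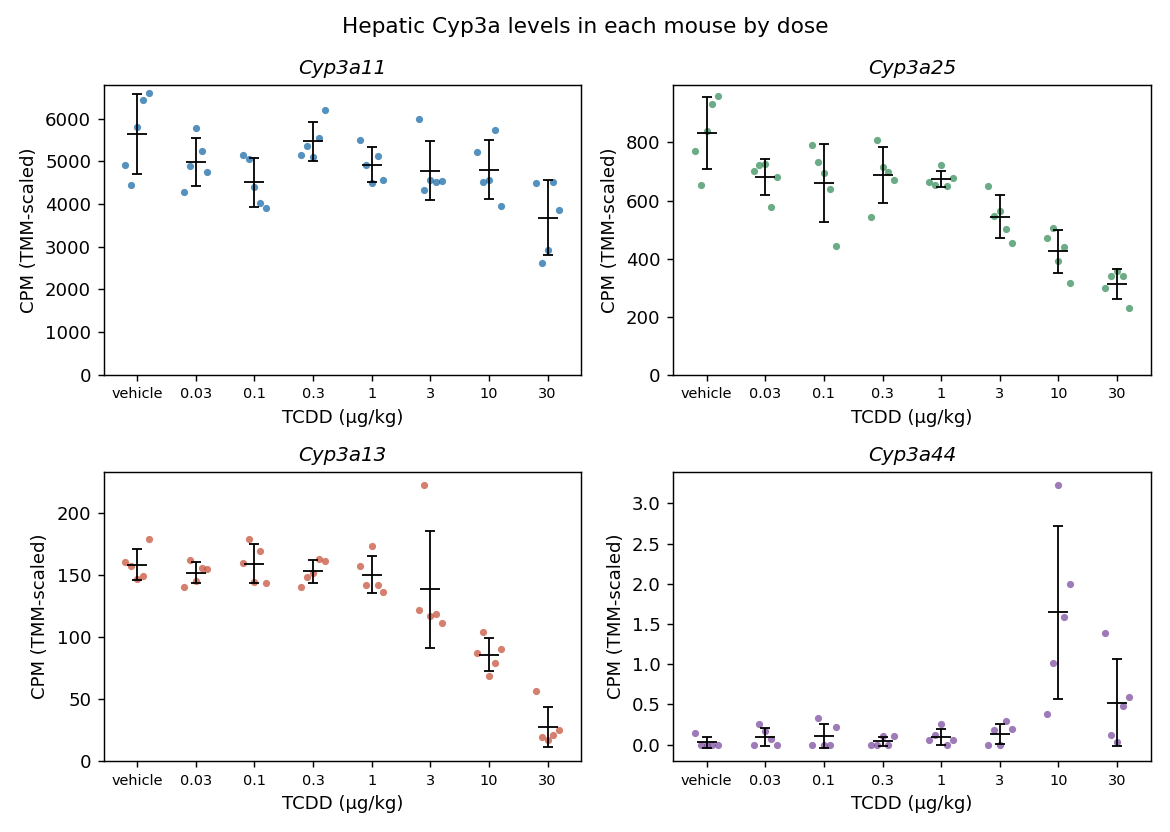
Levels of the 4 tested Cyp3a members in each mouse (points) by TCDD dose in μg/kg, in CPM on TMM-scaled libraries, each panel with its own linear axis. Black bars are the mean and SD of 5 mice. Cyp3a25 and Cyp3a13 declined at the upper doses, Cyp3a11 was lower at 30 μg/kg with overlapping mice, and Cyp3a44 was near 0 except at 10 and 30 μg/kg.

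At 30 μg/kg all 4 tested members were called, that is, changed at least 1.5-fold at a Benjamini-Hochberg adjusted p under 0.05 in edgeR's quasi-likelihood test. Cyp3a11, Cyp3a13 and Cyp3a25 were lower and Cyp3a44 was higher. At this dose 42.1% of 15373 tested genes were called, 23.2% higher and 18.9% lower. At 10 μg/kg 3 members were called, Cyp3a13 and Cyp3a25 lower and Cyp3a44 higher, against 21.8% of all genes, 13.6% higher and 8.13% lower. Leaving out Cyp3a44, the counts were 3 of 3 at 30 μg/kg and 2 of 3 at 10 μg/kg. At 3 μg/kg Cyp3a25 alone was called, against 6.75% of all genes. No member was called at 1, 0.3, 0.1 or 0.03 μg/kg, where 2.78%, 0.468%, 0.0976% and 0.0195% of genes were. At 30 μg/kg a call was common among all genes, and the members' count is to be read against that share.

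Cyp3a13, a form also found outside the liver, had the largest fold decline among the members. Vehicle mice had 160.8, 158, 147, 149 and 179 CPM, and means at 0.03 to 1 μg/kg lay between 151 and 160 CPM. The 10 μg/kg mice had 87.8, 104, 69.2, 79.4 and 90.4 CPM. The 30 μg/kg mice had 56.6, 19.7, 17.5, 21.2 and 25.1 CPM. Every mouse at 10 and at 30 μg/kg was below the lowest vehicle mouse, and the highest dose lay wholly below 10 μg/kg. The decline was 1.84-fold at 10 μg/kg (log2 fold change -0.88, SE 0.195, edgeR adjusted p = 0.000492) and 5.67-fold at 30 μg/kg (log2 fold change -2.50, SE 0.205, edgeR adjusted p = 5.18e-13). The highest value at 30 μg/kg was that of replicate 1, the mouse that stood apart, and without it the log2 fold change was -2.93.

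The decline of Cyp3a13 came in 2 called steps between neighboring doses. From 3 to 10 μg/kg, a comparison in which 6.77% of all genes were called, the log2 change was -0.69 (SE 0.194, edgeR adjusted p = 0.0188). From 10 to 30 μg/kg, where 21.1% of genes were called, it was -1.62 (SE 0.199, edgeR adjusted p = 9.63e-08), 3.08-fold, and without replicate 1 at 30 μg/kg it was -2.05. The first step rested partly on 1 mouse. At 3 μg/kg the mice had 122, 223, 117, 119 and 112 CPM, and without replicate 2, at 223 CPM, the step was -0.45 and was not called (edgeR adjusted p = 0.133). It was also not called without replicate 3 at 10 μg/kg (-0.62, edgeR adjusted p = 0.0709). Taken separately, the 2 numbering runs, consecutive blocks of library numbers in the titles, gave -0.69 and -0.55 for this step, neither called. Against vehicle, Cyp3a13 at 10 μg/kg was -0.71 and not called in run 1 alone (edgeR adjusted p = 0.165).

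Cyp3a25, an adult hepatic form, was called lower at 3, 10 and 30 μg/kg. Vehicle mice had 771, 655, 839, 931 and 961 CPM, and the means from 0.03 to 1 μg/kg were 660 to 687 CPM, with no call (log2 fold changes -0.27 to -0.33). Mice at 3 μg/kg had 651, 548, 564, 503 and 455 CPM. Those at 10 μg/kg had 472, 504, 392, 440 and 317 CPM. Those at 30 μg/kg had 300, 339, 358, 341 and 228 CPM. At each of these 3 doses every mouse lay below the lowest vehicle mouse, although at 3 μg/kg the gap was small. The log2 fold change was -0.61 at 3 μg/kg (SE 0.139, edgeR adjusted p = 0.00261), -0.97 at 10 μg/kg (SE 0.139, edgeR adjusted p = 9.71e-07) and -1.41 at 30 μg/kg (SE 0.141, edgeR adjusted p = 7.4e-11), the last a 2.65-fold decline. None of its single steps was called: the change was -0.31 from 1 to 3, -0.36 from 3 to 10 and -0.44 from 10 to 30 μg/kg. The call at 3 μg/kg sat close to the 1.5-fold threshold and was lost without vehicle replicate 4 (-0.57), vehicle replicate 5 (-0.55) or replicate 5 at 3 μg/kg (-0.55). Its vehicle mice split by numbering run, with means of 755 CPM in run 1 and 946 CPM in run 2, and in run 1 alone the change at 3 μg/kg was -0.38 and was not called (edgeR adjusted p = 0.185). The 0.1 μg/kg mean within run 1, 763 CPM, was not below that of vehicle.

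Cyp3a11 had the smallest fold change of the called members at 30 μg/kg. Vehicle mice had 4904, 4439, 5806, 6440 and 6592 CPM, and group means from 0.03 to 10 μg/kg were 4511 to 5469 CPM. The 30 μg/kg mice had 4501, 2619, 2923, 4526 and 3848 CPM. The vehicle and 30 μg/kg mice overlapped, with 3 treated mice under the lowest vehicle mouse. The log2 fold change was -0.61 (SE 0.139, edgeR adjusted p = 0.000273), 1.53-fold lower, against -0.23 at 10 μg/kg (SE 0.139, edgeR adjusted p = 0.211). This call depended on scaling. With total counts alone the median of all genes moved to 0.52 on the log2 scale and Cyp3a11 stood at -0.13 (edgeR adjusted p = 0.387). Relative to the median of all genes it stood at -0.64 with the main scaling and -0.65 with total counts. The call at 30 μg/kg was also lost without vehicle replicate 4 (-0.56) or 5 (-0.55) and without replicate 2 (-0.53) or 3 (-0.56) at 30 μg/kg.

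Vehicle values of Cyp3a11 also split by numbering run. The 3 vehicle mice of run 1 had 4439 to 5806 CPM and the 2 of run 2 had 6440 to 6592 CPM. Its log2 fold change at 30 μg/kg was -0.52 in run 1 alone (edgeR adjusted p = 0.0710). Over all members, run 1 alone, with 2 or 3 mice a group, called 2 members at 30 μg/kg (Cyp3a13 and Cyp3a25) and 1 at 10 μg/kg (Cyp3a25). Run 2 alone, also with 2 or 3 mice a group, called all 4 at 30 μg/kg and the same 3 at 10 μg/kg. Of 15814 genes tested, run 1 alone called 2539 higher and 2247 lower at 30 μg/kg, and 1195 and 712 at 10 μg/kg. Of 16015, run 2 alone called 3073 higher and 2884 lower at 30 μg/kg, and 1412 and 1017 at 10 μg/kg. What separates the runs is not given in the sources used here. Without replicate 1 at 30 μg/kg, the mouse that stood apart, all 4 stayed called, with Cyp3a11 at -0.70 and Cyp3a25 at -1.40.

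**Figure D2:**
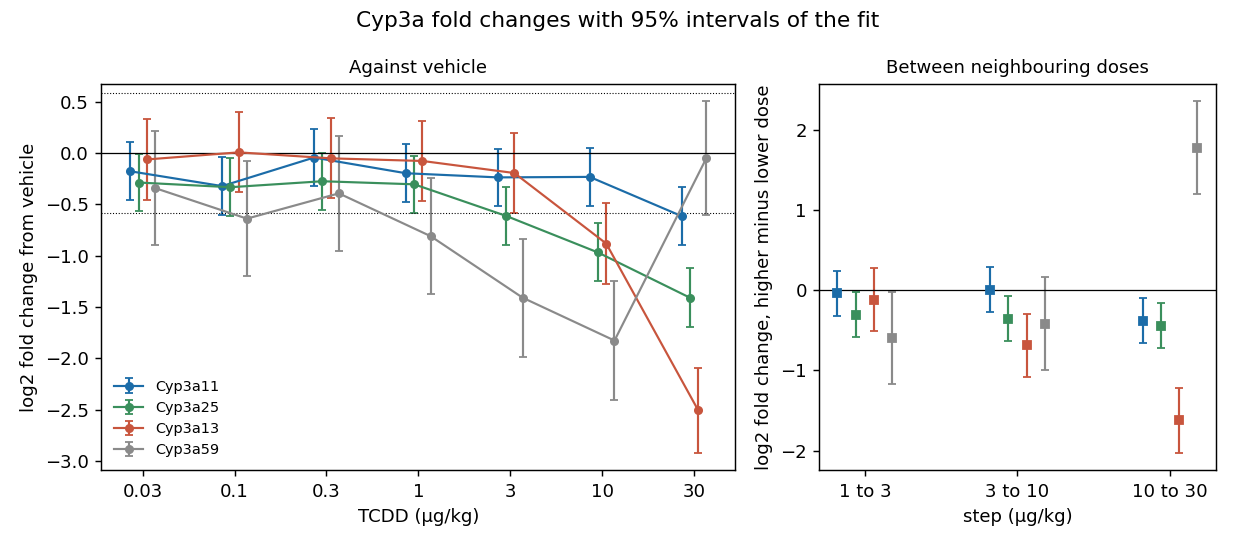
Left, log2 fold change from vehicle (vertical axis) by TCDD dose in μg/kg for Cyp3a11, Cyp3a25, Cyp3a13 and Cyp3a59, and right, log2 change between neighboring doses. Bars are 95% intervals of the edgeR fit on 5 mice a group, and dotted lines mark a 1.5-fold change. At 30 μg/kg Cyp3a13 reached -2.50 while Cyp3a11 reached -0.61, and Cyp3a59 stood at -0.05 after -1.83 at 10 μg/kg.

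Cyp3a44 was the member that rose. Vehicle libraries held 3, 0, 0, 0 and 0 counts, and no library from 0.03 to 3 μg/kg held more than 5. Libraries at 10 μg/kg held 8, 22, 62, 27 and 36 counts, each above every vehicle library. Those at 30 μg/kg held 30, 3, 1, 12 and 14 counts, and 2 of these mice lay within the vehicle range. Means were 1.64 ± 1.08 CPM at 10 μg/kg and 0.524 ± 0.536 CPM at 30 μg/kg (SD, n = 5). Against the floor of 3 counts per library, 0.191 CPM in vehicle, the level was at least 8.62-fold higher at 10 μg/kg and at least 2.74-fold higher at 30 μg/kg. Without replicate 1 at 30 μg/kg the mean there was 0.307 CPM and the bound 1.61-fold. With no filter on low counts the edgeR adjusted p was 0.000178 at 10 and 0.00668 at 30 μg/kg.

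The level of Cyp3a44 stayed far below that of the other tested members, at 0.0382% of the summed Cyp3a RPKM at 10 μg/kg. With no filter, the step from 3 to 10 μg/kg was called (edgeR adjusted p = 0.0133). The lower mean at 30 than at 10 μg/kg was not called with no filter (log2 change -1.64, edgeR adjusted p = 0.185). Among the filtered genes the change was -1.65, not called. Without replicate 1 at 30 μg/kg, which held the 30 counts, it was -2.40 and was called there. Cyp3a44 passed that filter only through these 2 doses, so a call among the filtered genes is no independent evidence of a fall. Cyp3a11, its near copy, was not higher at 10 μg/kg than in vehicle (4800 and 5636 CPM). No 150-base window of Cyp3a44 lies in another gene's transcript, while 26.5% of its 50-base windows do, and the part of misplaced reads was not tested.

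Across the ordered doses Cyp3a11, Cyp3a25 and Cyp3a13 each had a slope that passed the trend test, as did 57.7% of all genes. The slope per dose step on the log2 scale was -0.05 for Cyp3a11 (SE 0.0174), -0.17 for Cyp3a25 (SE 0.0201) and -0.23 for Cyp3a13 (SE 0.0452). For Cyp3a44 it was 0.70 with no filter (edgeR adjusted p = 1.48e-05) and 0.71 (SE 0.126) among the filtered genes. The slope of Cyp3a11 did not pass with total counts alone, where it was 0.0031, or in run 1 alone, where it was -0.035 (edgeR adjusted p = 0.305).

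The make-up of the family differed between doses as follows. Summed over all Cyp3a genes, the level was 2896 ± 468 RPKM in vehicle, 2296 ± 316 at 10 μg/kg and 1759 ± 371 at 30 μg/kg (SD, n = 5). Cyp3a25 made up 14.4 ± 0.422% of that sum in vehicle, 9.27 ± 1.26% at 10 μg/kg and 9.33 ± 3.01% at 30 μg/kg. Cyp3a13 made up 1.89 ± 0.326% in vehicle and 0.528 ± 0.226% at 30 μg/kg. Cyp3a11 made up 83.0 ± 0.642% in vehicle, 89.1 ± 1.45% at 10 μg/kg and 88.9 ± 3.43% at 30 μg/kg. These shares do not depend on how libraries were scaled and are given without a test. The summed levels do depend on it. With total counts alone Cyp3a11, most of the sum, stood at a log2 fold change of only -0.13 at 30 μg/kg (edgeR adjusted p = 0.387).

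**Figure D3:**
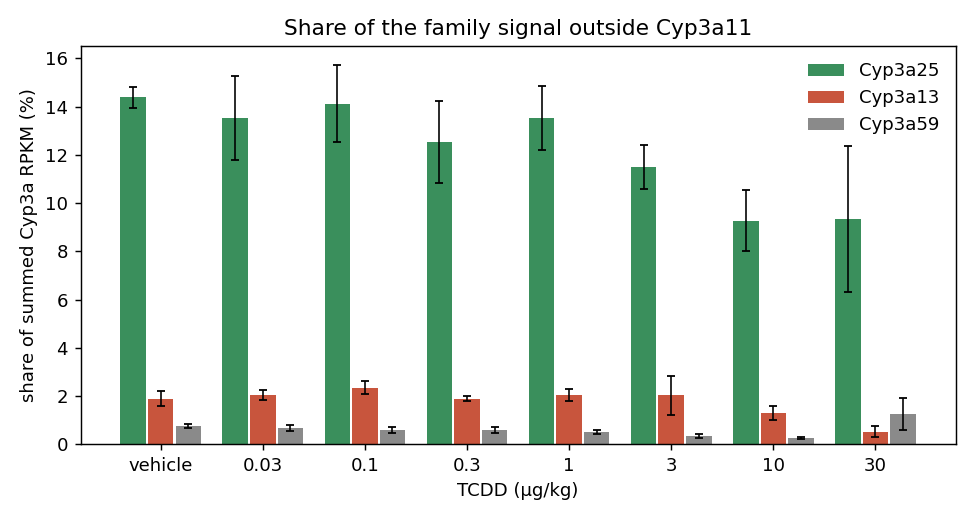
Share of the summed Cyp3a RPKM (vertical axis, percent) taken by Cyp3a25, Cyp3a13 and Cyp3a59 at each TCDD dose in μg/kg. Bars are means and error bars the SD of 5 mice, and the rest of the sum was nearly all Cyp3a11. The share of Cyp3a25 was 14.4% in vehicle and 9.33% at 30 μg/kg, and that of Cyp3a59 was highest at 30 μg/kg.

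Cyp3a59, the near copy of Cyp3a25 that is not among the 6, serves as a comparison. The vehicle mice had 32.8, 38.9, 45.6, 44.0 and 53.8 CPM, and at 10 μg/kg 12.7, 14.0, 13.0, 11.2 and 9.67 CPM. It was 2.65-fold lower at 3 μg/kg (log2 fold change -1.41, SE 0.284, edgeR adjusted p = 0.00078) and 3.55-fold lower at 10 μg/kg (log2 fold change -1.83, SE 0.288, edgeR adjusted p = 4.34e-06). The call at 3 μg/kg was lost in run 1 alone (-1.15, edgeR adjusted p = 0.115). Mice at 30 μg/kg had 10.1, 42.3, 53.8, 70.7 and 30.7 CPM, overlapping the vehicle mice. From 10 to 30 μg/kg it rose by 1.78 on the log2 scale (SE 0.286, edgeR adjusted p = 7.07e-06), with 4 of 5 mice above every 10 μg/kg mouse, while Cyp3a25 changed by -0.44 over the same step. The mouse that did not follow was replicate 1, and without it the mean was 49.4 CPM and the step 2.02. In run 1 alone, which holds that mouse, the step was 0.98 and was not called (edgeR adjusted p = 0.232). Per transcript length, Cyp3a59 stood below Cyp3a13 at 10 μg/kg (6.08 and 29.2 RPKM), and at 30 μg/kg the mice of both genes overlapped (20.9 ± 11.5 and 9.48 ± 5.49 RPKM). That overlap came from replicate 1: in the other 4 mice Cyp3a59 was at 15.4 to 35.5 RPKM and Cyp3a13 at 5.93 to 8.50 RPKM. Of the windows of Cyp3a59, 0.706% at 150 bases were shared, all with Cyp3a25. At 50 bases 28% were shared, with Cyp3a25 or Cyp3a57. Cyp3a25 was far more abundant, with means of 831 against 43.0 CPM in vehicle, and the part of misplaced reads was not tested.

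**Figure D4:**
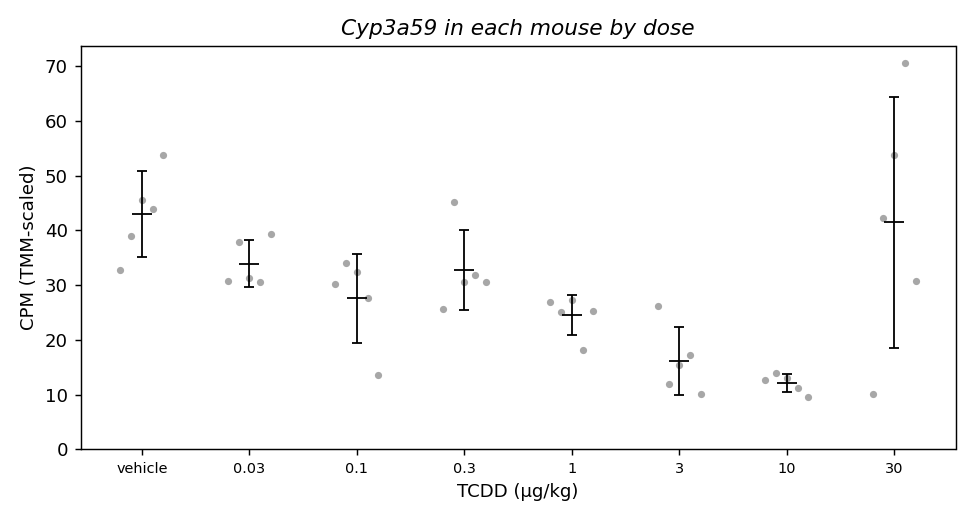
Level of Cyp3a59 in each mouse (points) by TCDD dose in μg/kg, in CPM on TMM-scaled libraries, with the mean and SD of 5 mice as black bars. The mice at 10 μg/kg sit between 9.67 and 14.0 CPM, and 4 of the 5 at 30 μg/kg lie between 30.7 and 70.7 CPM.

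In whole liver, fewer cells of a type and less RNA per cell cannot be told apart. Beside the decline of Cyp3a11, Cyp3a13 and Cyp3a25 at 30 μg/kg, the 6 hepatocyte markers were all called lower, and their sum ranged from 28269 to 59627 CPM. Their log2 fold changes ran from -1.18 (Apoc3) to -3.20 (Apoa1), so Cyp3a11 at -0.61 was less reduced than any of them in these values. Cyp3a25 at -1.41 and Cyp3a13 at -2.50 lay within the range of these markers. At 10 μg/kg 4 of 6 were called lower, and the sum ranged from 61075 to 100655 CPM. Markers of other cells were higher at 30 μg/kg: 6 of 6 of macrophages, 4 of 5 of cholangiocytes with 1 lower, 3 of 5 of endothelial cells, 4 of 5 of stellate cells and 4 of 5 of lymphocytes. The summed macrophage markers ranged from 130 to 186 CPM in vehicle and from 436 to 1005 CPM at 30 μg/kg. Summed ranges at 30 μg/kg against vehicle were 67.5 to 333 against 37.2 to 48.4 CPM for cholangiocytes, 191 to 254 against 116 to 160 CPM for endothelial cells, 169 to 463 against 37.1 to 91.4 CPM for stellate cells and 3.54 to 9.74 against 2.94 to 4.55 CPM for lymphocytes. Over all genes 23.2% were called higher and 18.9% lower at 30 μg/kg, and 8.13% lower at 10 μg/kg. The part of these cell markers in the Cyp3a changes was not tested.

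Some receptors and factors known to drive Cyp3a transcription were lower at the highest dose. Of 13 xenobiotic receptors and partner factors, 0 were called higher and 5 lower at 30 μg/kg, and 1 lower at 10 μg/kg, with median log2 fold changes of -0.56 and -0.37 (0.03 and 0.01 over all genes). Over all genes 18.9% were called lower at 30 μg/kg and 8.13% at 10 μg/kg, so the single call at 10 μg/kg was near that share. Nr1i2, which encodes PXR, was at 90.0 ± 8.67 CPM in vehicle and 62.3 ± 8.73 CPM at 30 μg/kg (log2 fold change -0.53, SE 0.129, edgeR adjusted p = 0.000616), below the mean of vehicle in all 5 mice but short of 1.5-fold. Nr1i3, which encodes CAR, was called higher at 1 μg/kg (log2 fold change 0.72, edgeR adjusted p = 0.00675) and stood at -0.37 at 30 μg/kg, not called. Among those called lower were Nr1h4, the bile acid receptor, Nr3c1, the glucocorticoid receptor, and the hepatocyte factors Cebpa (-1.65) and Foxa2 (-1.26).

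Genes of P450 electron donors and of heme synthesis and breakdown moved unevenly. The 5 listed were Por, Cyb5a, Cyb5r3, Alas1 and Hmox1, the last of which encodes a heme-degrading enzyme. Of 5, 3 were called higher and 1 lower at 30 μg/kg, with a median log2 fold change of 2.07, against 23.2% higher and 18.9% lower over all genes. Por, the P450 reductase, rose by 2.07 on the log2 scale (edgeR adjusted p = 6.18e-12), and Alas1, the first enzyme of heme synthesis, rose 5.36-fold (edgeR adjusted p = 0.000154). Cyb5r3, the reductase of cytochrome b5, was 3.42-fold lower.

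Other textbook targets of PXR and CAR were examined as a list. Of 23 listed genes 21 were tested, and at 30 μg/kg 10 were called higher and 4 lower, with a median log2 fold change of 0.54. With 10 μg/kg 7 were higher and 2 lower, with a median of 0.38. The shares of all genes called were 23.2% (up) and 18.9% (down) at the highest dose, and 13.6% and 8.13% with 10 μg/kg, so the counts of lower targets were near the share of all genes. Cyp2b10, the classical CAR target, rose to 83.5 ± 28.4 CPM at 10 μg/kg from 17.9 ± 9.12 CPM in vehicle (log2 fold change 2.21, edgeR adjusted p = 0.000213) and stood at 14.1 ± 15.7 CPM at 30 μg/kg. Among the higher genes were the glutathione transferase Gstm3 (18.9-fold) and the efflux transporter Abcc4 (91.2-fold). The carboxylesterase Ces2a was 10.5-fold lower at 30 μg/kg. Several of these genes are known to answer to other receptors too.

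**Figure D5:**
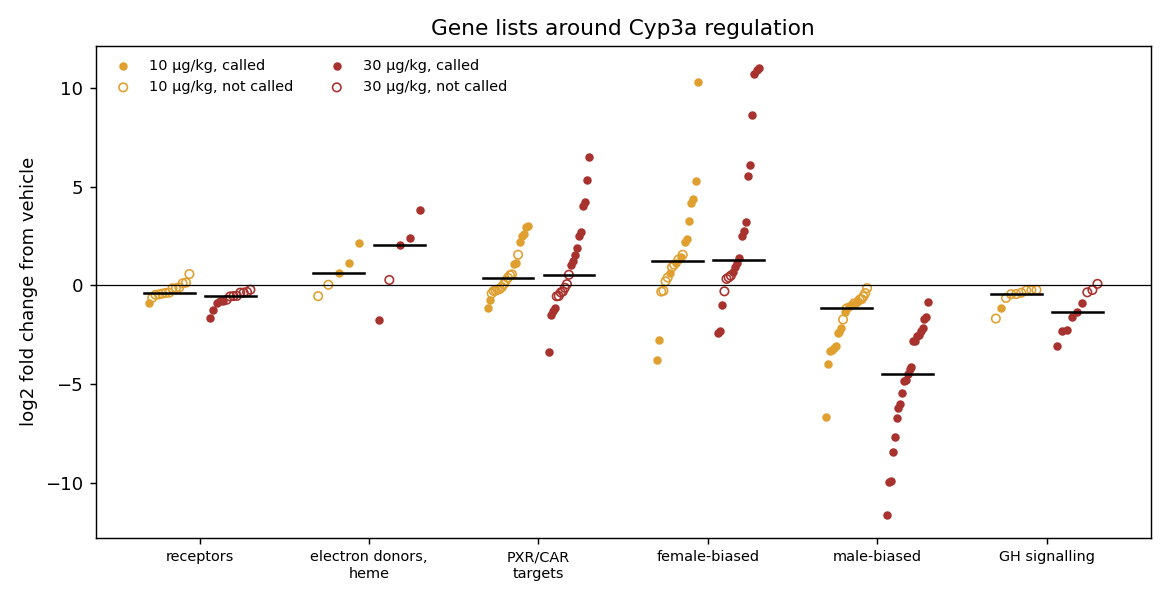
Log2 fold change from vehicle (vertical axis) of each tested gene in 6 lists, at 10 μg/kg and 30 μg/kg TCDD. Filled points were called, open points were not, and black lines are list medians. At 30 μg/kg all 23 tested male-biased genes lie below 0, and the PXR and CAR targets lie on both sides.

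Beside Cyp3a44 and Cyp3a41a, known as female forms, sex-biased liver genes were examined. Of 22 listed female-biased genes 20 were tested, and 13 were called higher and 3 lower at 30 μg/kg, with 10 higher and 2 lower at 10 μg/kg. Medians were 1.26 and 1.23 on the log2 scale. The counts of lower genes were close to the all-gene shares of 18.9% and 8.13%, and 23.2% and 13.6% of all genes were called higher. Cyp2a4, a steroid hydroxylase, rose to 1622 ± 866 CPM at 30 μg/kg from 4.06 ± 6.00 CPM in vehicle. Cyp2c40 and Cyp2c69 were lower at both doses. Of 24 listed male-biased genes 23 were tested, and all 23 were called lower at 30 μg/kg and 15 at 10 μg/kg, with medians of -4.49 and -1.16. Hsd3b5, a hydroxysteroid dehydrogenase, went from 239 ± 61.4 CPM to 0.0731 ± 0.141 CPM at 30 μg/kg. Several genes of both lists belong to families with near-identical copies, so their counts are uncertain.

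Growth hormone sets these sex patterns in mouse liver through STAT5. Of 9 genes of its signalling, 6 were called lower at 30 μg/kg and 1 at 10 μg/kg, with medians of -1.37 and -0.44, against 18.9% and 8.13% of all genes called lower. Ghr, the receptor, was 5.01-fold lower at 30 μg/kg (edgeR adjusted p = 8.17e-13), and Stat5b 1.84-fold lower (edgeR adjusted p = 2.55e-06). Any link of these genes to Cyp3a44 was not tested.

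Likeness of dose pattern was measured as the mean absolute difference in log2 fold change over the 7 doses, among 10660 genes. Nearest to Cyp3a13 were Prodh2 (0.021), Bco2 (0.052) and Nectin3 (0.065), and Prodh2 stood at -0.86 at 10 and -2.50 at 30 μg/kg. Nearest to Cyp3a11 were Znrd1as (0.044), Trio (0.053) and Rbfox2 (0.062). Nearest to Cyp3a25 were Gm38394 (0.078), AI480526 (0.079) and Pcsk5 (0.086). The nearest to Cyp3a44 was Cd83, at 0.592, which is not close. Cd83 stood at 2.89 at 10 and 3.77 at 30 μg/kg, and Cyp3a44 at 5.25 and 3.60. The fold changes of Cyp3a44 start from vehicle counts near 0. These distances are descriptive, and the doses share the vehicle mice.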

How the data were processed

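The authors deposited raw counts per gene from STAR 2.7.3a, after FastQC 0.11.7 and Trimmomatic 0.39 (the submitters' processing notes name builds GRCm39 and mm10 without roles), and a log2 table, which equaled DESeq2's blind variance-stabilized counts within 5.03e-10 for 23120 genes. Unstranded counts were used, so overlapping and antisense genes cannot be told apart. Reads mapped to several places (5.24% to 7.43%) are in no gene, and of all reads 71.3% to 80.8% were in genes. Rows naming no gene were left out. In the 80 pairs of replicates within groups, counts differed by at least 11.1 chi-square per degree of freedom, so none was a copy.

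Counts were filtered by filterByExpr (minimum count 10, total 15) and scaled by TMM in edgeR 4.0.16 (R 4.3.3). Its quasi-likelihood test took all 40 libraries, fitting every dose its own mean, and p-values were adjusted over all genes. The 1.5-fold threshold is the study's, whose posterior probability this test replaced. The slope had no fold threshold. A floor of 3 counts per library covers counting error only. p-values rest on the spread between mice within groups, estimated over all 8 groups of 5 mice together, so they do not measure the spread of a single group. Scripts were tested on simulated data.

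Named genes were the members, other Cyp3a genes, lists of regulators, targets, sex-biased genes and markers, and the 3 nearest in dose pattern to each called gene. Single values of some listed genes are not reported here. The members and lists were chosen with earlier results of these data known. Transcript lengths came from GENCODE M21 and promoters from RefSeq. Identity of coding bases replaced a planned protein identity. Alternatives used DESeq2 1.42.0 and its size factors, total counts, other filters, vehicle with a single dose, run as covariate or alone, the strand-specific column, limma 3.58.1 on the deposited log2 values, linear dose, no fold threshold, and each library left out in turn.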

Additional observations from a re-analysis of the deposited data

Results flagged for a closer look

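Within a group of 5 mice, a value was picked out when its gap to the nearest mouse exceeded 0.71 of the group's range, which chance does in about 5% of groups. Of 40 groups examined (Cyp3a11, Cyp3a13, Cyp3a25, Cyp3a44 and Cyp3a59 at 8 doses), 5 held such a mouse. Cyp3a11 stood at 5992 CPM in replicate 1 at 3 μg/kg, against 4325 to 4553 CPM in the others. Cyp3a13 stood at 223 CPM in replicate 2 at 3 μg/kg, against 112 to 122 CPM, and this mouse bears on the step to 10 μg/kg. Cyp3a13 stood at 56.6 CPM in replicate 1 at 30 μg/kg, against 17.5 to 25.1 CPM, the mouse that stood apart over all genes. Cyp3a44 stood at 0.149 CPM in vehicle replicate 1, from 3 counts, against 0 in the others. Cyp3a59 stood at 18.2 CPM in replicate 4 at 1 μg/kg, against 25.1 to 27.3 CPM. The causes were not tested.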

How the results depend on the processing

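The 3 declines at 30 μg/kg and the rise of Cyp3a44 kept their direction under every alternative run. Over the alternatives other than leaving out a library, log2 fold changes at 30 μg/kg ran from -2.98 to -2.04 for Cyp3a13, from -1.64 to -0.90 for Cyp3a25, from -0.82 to -0.13 for Cyp3a11 and from 0.82 (on the deposited log2 values) to 5.70 for Cyp3a44, which could be tested in 8 of 11. Cyp3a13 and Cyp3a25 stayed called at 30 μg/kg in all 11, and Cyp3a11 in 8 of 11.

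Members called at 30 μg/kg, 4 in the report, were 2 with a mean of at least 50 counts, where Cyp3a44 is not tested, and 2 in run 1 alone. The report's counts in this paragraph include Cyp3a44, which passed the filter only through the 10 and 30 μg/kg groups. Leaving it out, the main fit called 3 of 3 at 30, 2 of 3 at 10 and 1 of 3 at 3 μg/kg. It then called 1 of 3 in the 3 to 10 μg/kg step and 1 of 3 in the 10 to 30 μg/kg step. At 10 μg/kg run 1 alone called 1 in place of 3. At 3 μg/kg total counts alone and run 1 alone called 0 in place of 1. Over all genes at that dose, total counts alone called 862 higher and 250 lower of 15373. Run 1 alone called 255 and 174 of 15814. In the step from 3 to 10 μg/kg, 2 members were called, but 1 with total counts alone, with a mean of at least 50 counts and with the strand column, and 0 in either run alone. In the step from 10 to 30 μg/kg, 1 was called, but 0 in run 1 alone, 2 in run 2 alone and with limma on the deposited log2 values, and 3 with no fold threshold. In run 1 alone the 10 to 30 μg/kg step of Cyp3a44 reversed to 0.10 (from -1.65), and that of Cyp3a13 was -1.33 (edgeR adjusted p = 0.0506). Leaving out 1 library at a time gave 3 to 4 members at 30 μg/kg, 0 to 1 at 3 μg/kg, 1 to 2 in the 3 to 10 μg/kg step and 1 to 2 in the 10 to 30 μg/kg step.

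Apart from the 10 to 30 μg/kg step of Cyp3a44 in run 1 alone, the values that changed sign were near 0. Among them was 1 called value, the slope of Cyp3a11. Cyp3a59 at 30 μg/kg (-0.05) was 0.48 with total counts alone, 0.0125 with a mean of at least 50 counts, 0.0522 in run 2 alone, and -0.35 to 0.20 over left-out libraries, and its slope was 0.0088 on linear dose. The 3 to 10 μg/kg step of Cyp3a11 (0.0048) was -0.0013 with run as covariate, -0.0255 in run 1 alone and -0.068 to 0.098 over left-out libraries. The slope of Cyp3a11, called at -0.05, was 0.0031 with total counts alone. Genes called at 30 μg/kg over all genes were 3567 higher and 2909 lower, against 6402 and 1559 with total counts alone. Beyond scaling, filter and sample number, which follow from how each alternative is built, the cause was not tested. No paired analysis was possible because replicate numbers follow the order of deposit and tie no mouse to one in another group. At this depth Cyp3a16, Cyp3a41a and most Cyp3a44 values lie at or under 3 counts.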

Other observations

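Further Cyp3a genes were barely counted. Cyp3a57 had 42 counts in all 40 libraries, with 4, 5, 1, 4 and 2 in the vehicle mice, 0 in all 5 mice at 0.03 μg/kg and at most 4 in a mouse at 30 μg/kg. Cyp3a41b had 1 count, and the pseudogenes Cyp3a61-ps1 and Cyp3a63-ps had 1 and 7. The genes nearest in dose pattern to Cyp3a59 were Gpd2 (0.262 mean absolute log2 difference over 7 doses), D930048N14Rik (0.273) and Qpct (0.292), and Gpd2 stood at -1.73 at 10 μg/kg and -0.85 at 30 μg/kg.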
